A study of Mus musculus with 12 samples.

Results

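The genes described here are 38 genes of G2 phase and mitosis, the set of cyclins, kinases, checkpoint proteins, kinetochore and centromere proteins, mitotic kinesins and spindle proteins with which a cell divides. They were chosen by gene symbol, for their place in the pathway. Each was read on the brightest of the probe sets annotated to that symbol alone, out of 18193 genes that could be named in this way. For Ccnb1, the gene of cyclin B1, no probe set carried that symbol alone, so it has no value. The other 37 all passed the filter on low values, which left 11806 genes to test.

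The samples were mouse embryonic stem (ES) cells of 129P2/OlaHsd origin (E14, Ainv15) engineered with a tetracycline-inducible Neurog1, whose product is a helix-loop-helix factor that starts neuronal differentiation. The 12 arrays comprised 3 of uninduced cells (0 h), 3 of cells after 24 h, 3 after 48 h and 3 after 72 h of doxycycline at 1 ug per ml, and the labels call the arrays of a group biological replicates. Both uninduced and induced cells carried the transgene and shared a growth medium with serum, leukaemia inhibitory factor, puromycin and G418. There was no uninduced culture at the later times, so effects of Neurog1, of the drug and of the days in culture cannot be told apart, and the whole culture was measured, so fewer dividing cells and less RNA per dividing cell cannot be told apart either.

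As background, entry into mitosis is driven by the kinase CDK1 bound to A- and B-type cyclins and released by CDC25 phosphatases. Polo-like and Aurora kinases then build the spindle, kinetochores attach chromosomes to it, and a checkpoint withholds the anaphase-promoting complex until every chromosome is attached. Transcripts of these genes accumulate from S phase to mitosis and are low in resting cells. The repressor complex DREAM, the B-Myb and MuvB activator complex and FOXM1 act on their promoters, through an element called the cell cycle genes homology region (CHR) and through CCAAT boxes bound by NF-Y. ES cells divide quickly, whereas neurons do not divide.

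At 48 h and 72 h of induction the mitotic genes were lower than in uninduced cells almost throughout. The median log2 difference over the 37 members was -0.91 at 48 h and -1.23 at 72 h, against 0.12 and 0.09 over all genes tested, which puts the members 1.03 and 1.31 below that middle. At 48 h the 3 induced arrays lay below all 3 uninduced arrays for 33 of 37 members, as they did for 26.9% of all genes tested, and at 72 h for 35 of 37, against 29.6% of all genes. At 24 h no such fall had appeared on the arrays of replicates 2 and 3, and Cdc25b and Cenpm were higher. Differences are limma estimates on the log2(signal + 16) scale ± their standard error (SE), and a gene is called at a Benjamini-Hochberg adjusted p under 0.05 over all genes tested, with 3 arrays against 3.

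**Figure D1:**
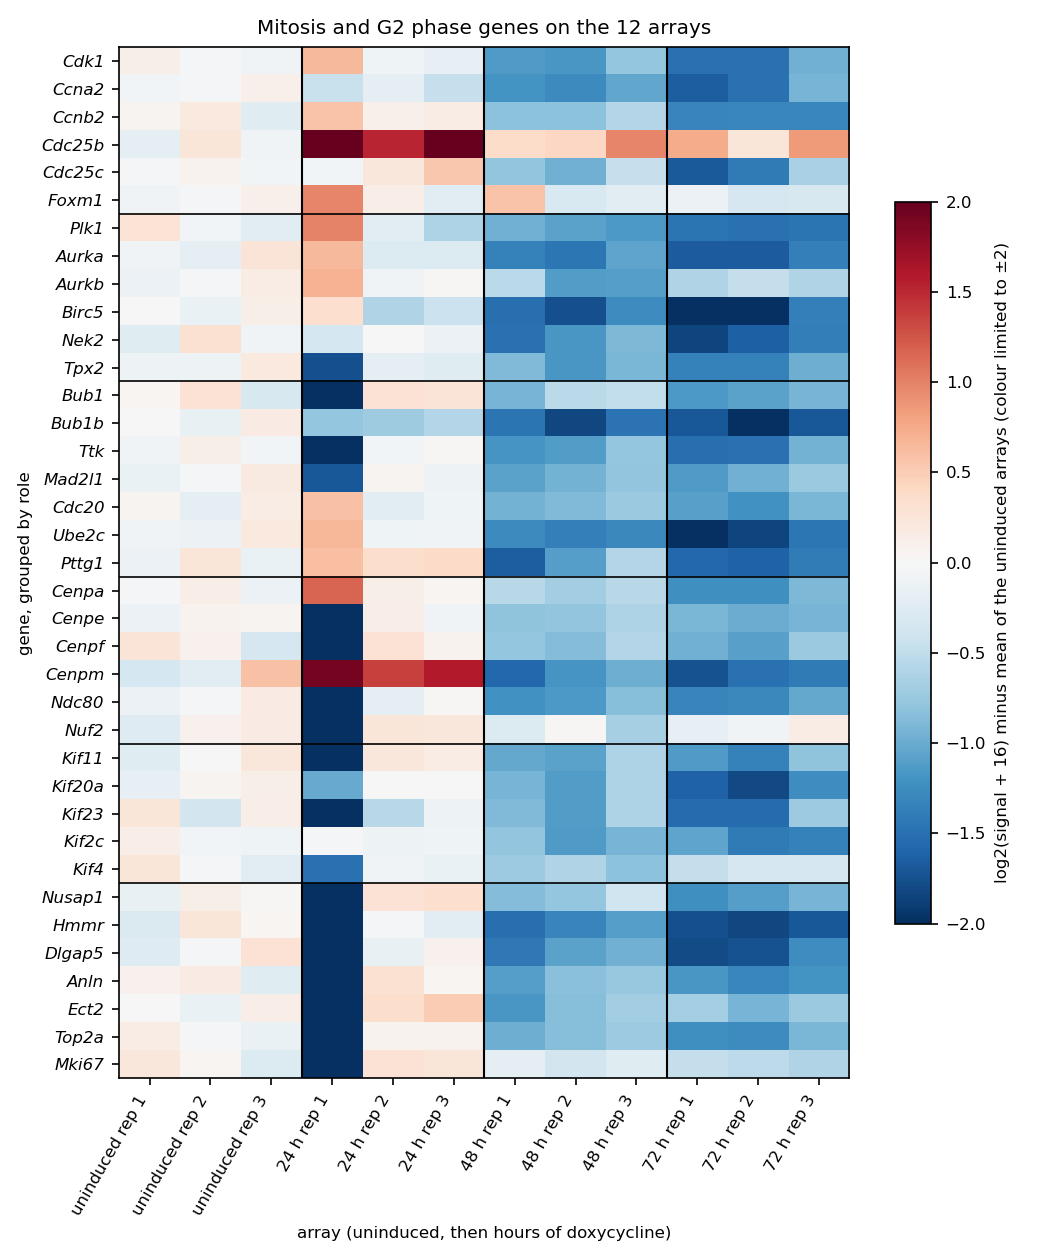
Each cell is the log2(signal + 16) of a member on an array minus the mean of the 3 uninduced arrays, with blue for lower and red for higher, members grouped by role from top to bottom and arrays from 0 h to 72 h from left to right. The 48 h and 72 h arrays are blue for nearly all members apart from Cdc25b, Foxm1 and Nuf2, and the first 24 h array is unlike the other 24 h arrays.

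One array has to be described before the tests. Induced 24 h replicate 1 correlated at r = 0.787 and 0.812 with the other 24 h arrays across the genes tested, whereas every other pair within a group reached at least 0.961. Its ratio of 3' to 5' signal for Pcx, a measure of RNA integrity, was 6.81, against 1.22 to 2.8 on the other arrays. The ratios of the other mouse mRNA controls were not raised: that of Gapdh (0.862) lay within the others' 0.658 to 0.864 and that of beta-actin (1.42) within 1.34 to 1.54. That of the transferrin receptor (1.86) lay below the others' 1.91 to 2.72. All 12 arrays share the estimate of spread, so this array also enters the tests at 48 h and 72 h, and counts are therefore given with all 12 arrays and without it. The induced gene separated the groups as labelled: Neurog1 signals were 465 to 1152 on the induced arrays and 4.529 to 18.7 on the uninduced arrays. The ES cell label was borne by its markers: the summed signal of 10 ES cell genes was 44950 to 51560 on uninduced arrays, 22190 to 29610 at 24 h, 5826 to 8818 at 48 h and 5059 to 5772 at 72 h. Over the same times the sum of 12 neuronal genes was 4246 to 4837, 2329 to 5824, 14750 to 20700 and 34950 to 37570. Most of the uninduced neuronal sum was Stmn2, at 3222, 3649 and 3264. At 24 h 4 of the 12 were called higher and 2 lower, Stmn2 (-1.56 ± 0.28) and Nefl (-1.27 ± 0.29). At 48 h and at 72 h 11 of the 12 were called higher and 0 lower. The sum of 8 neural progenitor genes, marks of a cell type that divides, was 2287 to 2524, 2329 to 4466, 7942 to 10090 and 9024 to 9874, and 7 of the 8 were called higher at 48 h and at 72 h. Most of the uninduced progenitor sum was Vim, at 2162, 2213 and 2291, and Vim had 4883, 4436 and 6905 at 72 h. The sum of 7 endoderm genes was 303.6 to 951.6 at 72 h against 104.4 to 228.3 on uninduced arrays, and 3 of the 5 bright enough to test were called higher at 72 h. The sum of 12 fibroblast or feeder genes was 950.8 to 1711 at 72 h against 272.5 to 828 on uninduced arrays. Only 4 of these 12 were bright enough to test, and they did not move together at 72 h: Acta2 was called higher (2.45 ± 0.76), Thy1 lower (-1.29 ± 0.28), and Col1a2 and Col6a2 were not called. The part of this changing make-up of the cultures in the mitotic values was not tested.

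Because so many members moved together, their promoters were read from RefSeq (GRCm38.p6) for the elements named above. Of the 38 members, 31 had an entry in the table, giving 32 windows of the 250 bases before the transcription start, since Ect2 has more than 1. Ccna2, Cdc25c, Foxm1, Aurkb, Tpx2, Kif20a and Dlgap5 were not looked up elsewhere. The letters CCAAT, searched on both strands, stood in 24 of the 32 windows (75%), against 35.4% of 12287 windows of the genes tested and 33.8% of all 32851 windows. At least 2 CCAAT were found in 17 windows (53.1%), against 13.0% of the tested genes' windows. A CHR, searched as TTTGAA or TTTAAA on both strands (TTTAAA reads the same on each), stood in 15 windows (46.9%), against 17.4%. Both elements stood in 13 (40.6%), against 6.2%. The E2F-type letters TTCCCGC were found in 1 window (3.1% against 7.0%), and the E-boxes CAGATG or CAGCTG, of the kind that proneural factors bind, in 5 (15.6% against 20.6%). These are matches of letters and not sites shown to be bound. The windows of 8 members are printed, namely the 5 called members with the largest falls at 72 h that had a window, Cdk1 as the kinase the pathway turns on, and Cdc25b and Cenpm as the members that rose at 24 h. Each runs 5′ to 3′ on the strand of its gene, and capitals mark CCAAT or a CHR on either strand.
Birc5 (chr11:117848987-117849236, plus strand): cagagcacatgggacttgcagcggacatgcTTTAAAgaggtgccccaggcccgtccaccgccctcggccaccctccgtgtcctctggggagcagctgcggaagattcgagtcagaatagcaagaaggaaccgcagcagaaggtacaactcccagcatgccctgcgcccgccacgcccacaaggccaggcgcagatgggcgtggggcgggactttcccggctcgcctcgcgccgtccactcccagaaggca
Bub1b (chr2:118597961-118598210, plus strand): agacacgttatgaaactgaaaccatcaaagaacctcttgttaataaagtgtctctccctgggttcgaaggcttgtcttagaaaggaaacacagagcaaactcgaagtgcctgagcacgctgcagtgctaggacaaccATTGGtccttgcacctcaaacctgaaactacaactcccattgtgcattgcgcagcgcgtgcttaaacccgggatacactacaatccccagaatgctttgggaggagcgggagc
Ube2c (chr2:164769679-164769928, plus strand): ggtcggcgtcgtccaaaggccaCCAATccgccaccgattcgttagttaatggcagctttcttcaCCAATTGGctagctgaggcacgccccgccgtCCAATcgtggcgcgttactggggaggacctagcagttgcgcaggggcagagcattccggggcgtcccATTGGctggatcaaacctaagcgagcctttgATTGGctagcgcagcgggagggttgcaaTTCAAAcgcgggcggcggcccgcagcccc
Nek2 (chr1:191821223-191821472, plus strand): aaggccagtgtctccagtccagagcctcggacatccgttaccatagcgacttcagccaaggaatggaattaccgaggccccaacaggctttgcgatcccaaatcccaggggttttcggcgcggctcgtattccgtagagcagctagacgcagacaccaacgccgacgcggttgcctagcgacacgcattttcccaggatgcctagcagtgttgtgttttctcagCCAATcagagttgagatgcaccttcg
Aurka (chr2:172370571-172370820, minus strand): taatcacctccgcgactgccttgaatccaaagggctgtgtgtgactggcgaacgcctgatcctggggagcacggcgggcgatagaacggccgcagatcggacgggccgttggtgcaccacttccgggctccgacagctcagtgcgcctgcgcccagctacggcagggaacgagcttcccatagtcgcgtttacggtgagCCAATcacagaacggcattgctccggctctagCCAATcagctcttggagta
Cdk1 (chr10:69352913-69353162, minus strand): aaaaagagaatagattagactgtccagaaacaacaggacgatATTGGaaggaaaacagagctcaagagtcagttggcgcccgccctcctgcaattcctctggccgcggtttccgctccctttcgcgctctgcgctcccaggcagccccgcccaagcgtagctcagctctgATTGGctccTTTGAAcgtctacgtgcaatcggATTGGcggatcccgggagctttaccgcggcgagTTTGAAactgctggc
Cdc25b (chr2:131186698-131186947, plus strand): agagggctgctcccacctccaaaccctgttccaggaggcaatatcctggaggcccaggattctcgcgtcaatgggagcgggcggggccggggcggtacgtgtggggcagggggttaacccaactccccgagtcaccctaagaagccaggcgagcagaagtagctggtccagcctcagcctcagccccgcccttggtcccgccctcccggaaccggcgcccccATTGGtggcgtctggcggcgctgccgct
Cenpm (chr15:82244337-82244586, minus strand): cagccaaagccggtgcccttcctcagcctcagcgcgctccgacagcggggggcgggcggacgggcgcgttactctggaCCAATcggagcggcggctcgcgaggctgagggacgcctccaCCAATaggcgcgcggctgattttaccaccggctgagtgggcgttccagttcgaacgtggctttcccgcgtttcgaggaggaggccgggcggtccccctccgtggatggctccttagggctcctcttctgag
The Ube2c window held 6 CCAAT and 1 CHR, the most CCAAT of the 8, and that of Cdk1 3 CCAAT and 2 CHR. In Ube2c the stretch CCAATTGG counts as 2 of the 6, since it holds overlapping matches on both strands. Birc5 held a CHR and no CCAAT, whereas Aurka, Nek2 and Bub1b held CCAAT and no CHR. The windows of Cdc25b and Cenpm also held CCAAT (1 and 2) and no CHR, as did those of Aurka, Nek2 and Bub1b.

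Among the cyclins, CDK1 and its activators, the cyclins and Cdk1 fell and Cdc25b did not. Cdk1, the kinase of mitotic entry, had signals of 1099.8, 1070.3 and 1408 at 48 h and 852, 847 and 1236 at 72 h, against 2635, 2345 and 2297 in uninduced cells. Every array at 48 h and 72 h lay below every uninduced array. The difference was -1.02 ± 0.24 at 48 h (adjusted p = 0.00593) and -1.32 ± 0.24 at 72 h (adjusted p = 0.000882), a level 2.49-fold lower than in uninduced cells at 72 h. Ccna2, the gene of cyclin A2, had 547, 614 and 915 at 72 h against 1675, 1699.9 and 1874 in uninduced cells, without overlap, and fell by 1.17 ± 0.21 at 48 h and 1.35 ± 0.21 at 72 h. Ccnb2, the gene of cyclin B2, had 967, 967 and 1139 at 48 h and 679, 686 and 685 at 72 h, against 1781, 1962 and 1443 in uninduced cells. Its 72 h arrays differed from each other by less than any other group of Ccnb2, and it fell by 0.74 ± 0.20 at 48 h and 1.31 ± 0.20 at 72 h (adjusted p = 0.000193).

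Of the phosphatase genes that release CDK1, Cdc25c fell at 72 h and Cdc25b did not. Cdc25c had 56.6, 71.7 and 134 at 72 h against 214, 229 and 209 in uninduced cells, all below, and was called at 72 h (-1.25 ± 0.28) but not at 48 h (-0.73 ± 0.28, adjusted p = 0.0578). A further bright probe set of Cdc25c stood at -0.20 at 48 h and -0.44 at 72 h. Cdc25b was above the uninduced arrays (93.9, 132 and 103) on all 3 arrays at 48 h (144, 149.8 and 230.1), and overlapped them at 72 h (193, 131 and 209). Its differences of 0.59 ± 0.31 at 48 h and 0.61 ± 0.31 at 72 h did not pass with 12 arrays (adjusted p = 0.159 and 0.126) and passed without 24 h replicate 1 (0.0419 and 0.0311, 0.0203 to 0.595 at 48 h and 0.0147 to 0.505 at 72 h over the alternatives). Foxm1, a transcription factor that activates G2 and M genes, was at 0.02 ± 0.31 at 48 h and -0.26 ± 0.31 at 72 h (adjusted p = 0.967 and 0.528). Its signals were 86.2, 71.6 and 72.2 at 72 h against 89.4, 92.5 and 102 in uninduced cells, all lower by a small margin, and 2 of its further bright probe sets gave the opposite sign to this one at 48 h and at 72 h. With 12 arrays 3 of the 6 measured members of this group were lower at 48 h and 4 at 72 h, where 14.0% and 18.6% of all genes tested were. Without 24 h replicate 1 there were 4 at each time and Cdc25b higher, where 23.8% and 27.9% of all genes were lower.

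The mitotic kinases and their partners fell as a group at 48 h, where 6 of 6 were called, and 5 of 6 were called at 72 h, against 14.0% and 18.6% of all genes called lower. Birc5, the gene of survivin, a subunit of the chromosomal passenger complex, had the largest fall of all members at 72 h. Its signals were 866, 728 and 1031 at 48 h and 417, 602 and 952 at 72 h, against 2491, 2276 and 2713 in uninduced cells. The 72 h arrays spread over more than 2-fold from lowest to highest and still lay below every uninduced array, with -1.50 ± 0.31 at 48 h and -1.97 ± 0.31 at 72 h (adjusted p = 0.000245), a 3.927-fold lower level at 72 h. Aurkb, the kinase of the same complex, had 246, 158 and 161 at 48 h and 234, 257 and 234 at 72 h against 335, 354 and 403 in uninduced cells. It fell by 0.92 ± 0.25 at 48 h, and at 72 h its -0.56 ± 0.25 missed the threshold (adjusted p = 0.0933) although the arrays did not overlap. A further probe set of Aurkb, nearly as bright, stood at -0.58 at 48 h and -0.58 at 72 h, so the larger fall at 48 h was seen on only 1 of them.

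Plk1, the polo-like kinase of centrosome maturation and mitotic entry, had 560.3, 517 and 491 at 48 h and 392, 384 and 392 at 72 h, against 1339, 1065 and 953 in uninduced cells. The 72 h arrays of Plk1 nearly coincided, and it fell by 1.06 ± 0.33 and 1.47 ± 0.33. Aurka, the Aurora kinase of spindle poles, had 478, 481 and 595 at 72 h against 1473, 1373 and 1861 in uninduced cells and fell by 1.29 ± 0.26 at 48 h and 1.56 ± 0.26 at 72 h. Tpx2, which activates Aurora A on the spindle, fell by 0.98 ± 0.35 and 1.23 ± 0.35. It had 417, 417 and 549.5 at 72 h against 1019, 1018 and 1255 in uninduced cells. A further bright probe set of Tpx2 stood at only -0.087 at 48 h and -0.38 at 72 h. Nek2, a kinase of centrosome separation, had 223, 259 and 312 at 72 h against 708, 1043 and 801 in uninduced cells and fell by 1.19 ± 0.24 and 1.62 ± 0.24. The fall was smaller on a further bright probe set of Nek2, at -0.63 at 48 h and -0.66 at 72 h. None of the 48 h or 72 h arrays overlapped uninduced arrays for any of these 6 genes. Of all genes tested, 26.9% lay below without overlap at 48 h and 29.6% at 72 h.

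**Figure D2:**
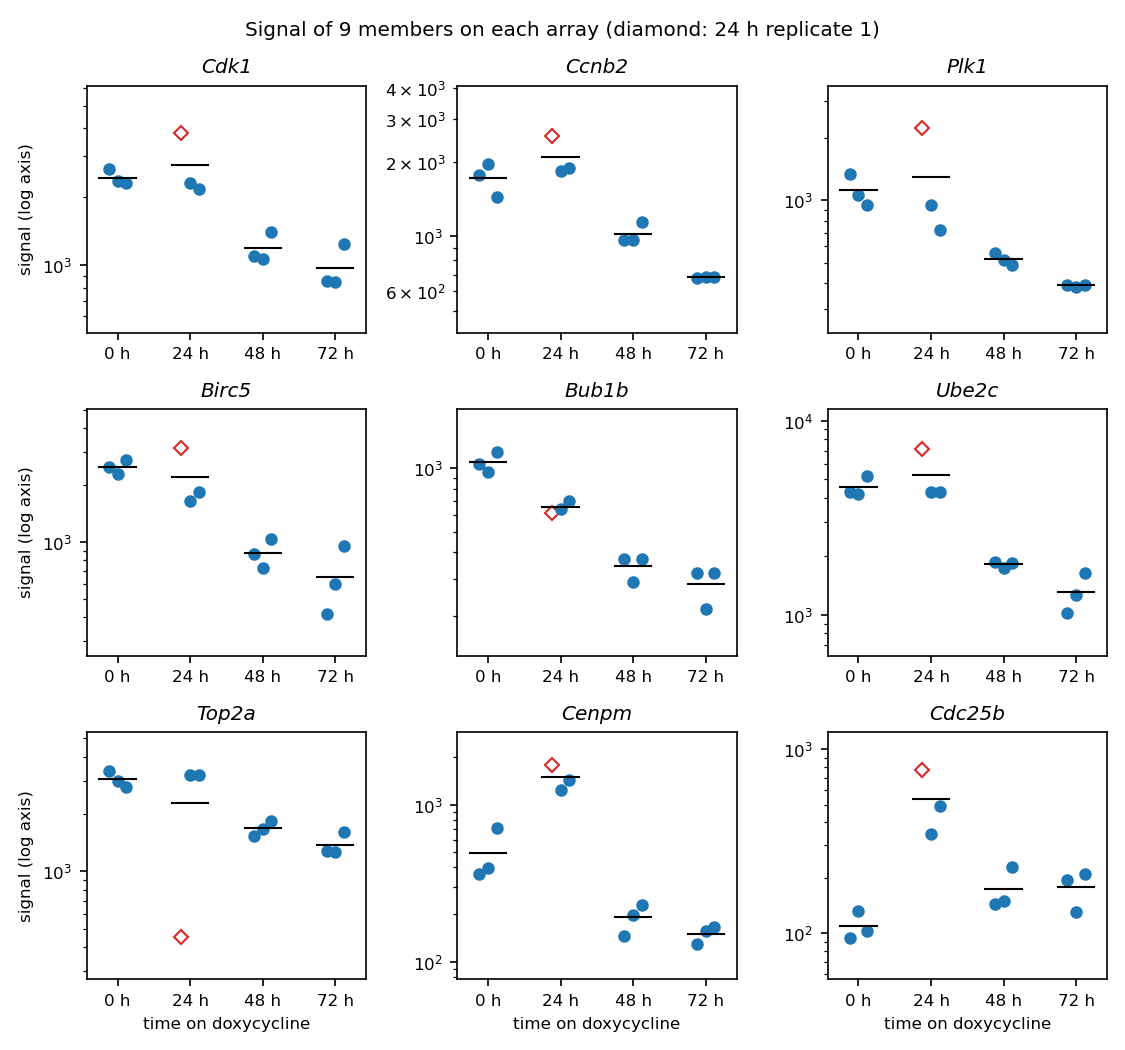
Points are the signals of 9 members on the 12 arrays on log axes, by hours on doxycycline, with a line at the mean of the 3 arrays of each time and a red diamond for 24 h replicate 1. Cdk1, Ccnb2, Plk1, Birc5, Bub1b, Ube2c, Top2a and Cenpm sit below the uninduced arrays at 48 h and 72 h without overlap, Cdc25b does not, and the diamond lies above the other 24 h arrays for most of the 9 and far below for Top2a.

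Of the spindle checkpoint and of anaphase promotion, all 7 genes had arrays below uninduced cells without overlap at both 48 h and 72 h, as did 26.9% and 29.6% of all genes. With 12 arrays 4 were called at 48 h and 5 at 72 h, against 14.0% and 18.6% of all genes called lower. Bub1b, the gene of the checkpoint protein BubR1, had 374, 290.1 and 372 at 48 h and 318, 216 and 319 at 72 h, against 1054, 958 and 1191 in uninduced cells. It fell by 1.59 ± 0.22 at 48 h (adjusted p = 0.000139), the largest called fall of the members at that time, and by 1.87 ± 0.22 at 72 h (adjusted p = 2.8e-05). Ube2c, the ubiquitin-conjugating enzyme of the anaphase-promoting complex, had 1863, 1745 and 1845 at 48 h and 1022, 1264 and 1648 at 72 h, against 4295, 4168 and 5199.7 in uninduced cells. All 72 h arrays of Ube2c lay below all its 48 h arrays as well, and it fell by 1.31 ± 0.23 and 1.80 ± 0.23, a 3.492-fold lower level at 72 h. Pttg1, the gene of securin, which holds separase inactive, had 1111, 1622 and 2332 at 48 h and 1173, 1136 and 1323 at 72 h against 3258, 4149 and 3217 in uninduced cells, and fell by 1.12 ± 0.24 and 1.53 ± 0.24. Cdc20, the activator of the anaphase-promoting complex, had 2610.4, 2396 and 2947 at 72 h against 5781, 4845 and 6143 in uninduced cells and fell by 0.86 ± 0.21 and 1.07 ± 0.21.

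The remaining checkpoint genes moved by similar amounts with wider errors. Mad2l1, the gene of the checkpoint effector Mad2, had 1414, 1601 and 1863 at 72 h against 2843, 3062 and 3540.4 in uninduced cells and was called at 72 h alone (-0.95 ± 0.36, adjusted p = 0.0483). The checkpoint kinases Bub1 and Ttk were not called with 12 arrays at either time. Bub1 had 606, 641 and 710.0 at 72 h against 1404, 1671 and 1095 in uninduced cells, and its difference of -1.05 ± 0.71 had an adjusted p of 0.255. Ttk had 307, 311 and 458 at 72 h against 858, 981 and 866 in uninduced cells, with -1.31 ± 0.68 (adjusted p = 0.136). For both genes every 72 h array lay below every uninduced array. The SE of Bub1 and Ttk shrank to 0.16 and 0.17 without 24 h replicate 1, on which they had signals of 119 and 68.6. All 7 genes of this group were then called lower at both times, where 23.8% of all genes were at 48 h and 27.9% at 72 h.

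At the kinetochore and centromere, Cenpm was called at both times and Cenpa at 72 h, while the arrays of Nuf2 overlapped those of uninduced cells. Cenpm, a subunit of the network that assembles on centromeric chromatin, had 146, 197 and 231 at 48 h and 129, 157 and 166 at 72 h, against 364, 396 and 708 in uninduced cells. The uninduced arrays of Cenpm were themselves spread by nearly 2-fold, and it fell by 1.24 ± 0.28 and 1.54 ± 0.28. Cenpa, the centromeric histone variant, had 554, 558 and 707 at 72 h against 1308, 1454 and 1224 in uninduced cells and was at -0.60 ± 0.27 at 48 h (adjusted p = 0.105) and -1.12 ± 0.27 at 72 h (adjusted p = 0.00533). The call of Cenpa at 72 h was lost with the mean of all its probe sets (adjusted p = 0.197, 1.5e-07 to 0.197 over the alternatives). Cenpe, a kinesin of the kinetochore, had 277, 262 and 273 at 72 h against 492, 563 and 557 in uninduced cells, and Cenpf had 381, 348 and 446 against 908, 803 and 601. Neither overlapped, and neither was called with 12 arrays (-0.95 ± 0.63 and -0.94 ± 0.65 at 72 h).

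Ndc80 and Nuf2 encode partners in the complex by which the kinetochore holds the microtubule. Ndc80 had 159.6, 164 and 199 at 72 h, against 387, 412 and 473 in uninduced cells, a difference of -1.21 ± 0.66 that was not called with 12 arrays (adjusted p = 0.156). Nuf2 had 182, 193 and 229 at 72 h against 169, 218 and 232 in uninduced cells, which overlapped, and 166, 209 and 124 at 48 h. Its -0.30 ± 0.48 at 48 h and -0.03 ± 0.48 at 72 h passed neither with 12 arrays nor without 24 h replicate 1. Without that array 5 of the 6 kinetochore genes were called lower at each time, all but Nuf2, where 23.8% of all genes were at 48 h and 27.9% at 72 h. The difference between Ndc80 and Nuf2 was itself not tested.

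The mitotic kinesins lay below uninduced cells without overlap in all 5 cases at both times, as did 26.9% of all genes at 48 h and 29.6% at 72 h. Kif20a, which carries the passenger complex to the spindle midzone, had 548, 479.8 and 685 at 48 h and 335, 290.1 and 436 at 72 h, against 937, 1093 and 1150.5 in uninduced cells, and fell by 0.88 ± 0.29 and 1.56 ± 0.29. Kif2c, a microtubule depolymerase, had 412, 317 and 332 at 72 h against 963, 845 and 822 in uninduced cells and fell by 0.95 ± 0.20 and 1.28 ± 0.20. Kif23, a centralspindlin motor of cytokinesis, had 213, 213 and 387 at 72 h against 772, 500.3 and 713 in uninduced cells and was called at 72 h (-1.27 ± 0.46, adjusted p = 0.0385) and not at 48 h. Kif11, the motor that pushes spindle poles apart, had 286, 244 and 365 at 72 h against 547, 648 and 762 in uninduced cells, and its -1.09 ± 0.65 was called only without 24 h replicate 1. The chromokinesin Kif4 had 120.0, 133 and 112 at 48 h and 145, 164 and 162 at 72 h, against 252, 203 and 179 in uninduced cells. Its difference was -0.71 ± 0.33 at 48 h, called only without that array, and -0.38 ± 0.33 at 72 h, called in neither fit.

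Among the genes of the spindle, cytokinesis and chromosome structure only Dlgap5 was called with 12 arrays, at 72 h, and 6 of 7 at 48 h and 7 of 7 at 72 h were called without 24 h replicate 1, where 23.8% and 27.9% of all genes were called lower. Dlgap5, a spindle assembly factor, had 149.7, 155 and 225 at 72 h against 463, 539 and 685 in uninduced cells and fell by 1.59 ± 0.46 (adjusted p = 0.0134). Hmmr, which encodes a spindle protein first known as a hyaluronan receptor, had 538, 618 and 719 at 48 h and 448, 431 and 469.8 at 72 h, against 1273, 1855 and 1605 in uninduced cells. Every 48 h and 72 h array of Hmmr lay well below the lowest uninduced array, yet the difference of -1.76 ± 0.68 missed the threshold with 12 arrays (adjusted p = 0.0512). Anln, the gene of anillin of the contractile ring, was at -1.22 ± 0.51 at 72 h, with 790.4, 714 and 772 against 1896, 2002 and 1512 in uninduced cells. Ect2, the exchange factor that starts furrow ingression, had 567, 705 and 788 at 48 h and 802, 673 and 766 at 72 h, against 1301, 1169.7 and 1413 in uninduced cells, without overlap. Nusap1, a microtubule bundling protein, had 619.6, 675 and 766 at 72 h against 1319, 1603 and 1503 in uninduced cells (-1.08 ± 0.55).

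Top2a and Mki67 are both much used as marks of dividing cells. Top2a, the topoisomerase that untangles sister chromatids, had 1541, 1679 and 1831 at 48 h and 1282, 1259.7 and 1607 at 72 h, against 3356, 2995 and 2779.6 in uninduced cells. Its -0.85 ± 0.55 at 48 h and -1.13 ± 0.55 at 72 h were called without 24 h replicate 1 and not with it (adjusted p = 0.252 and 0.113). Mki67, the gene of the chromosome coat protein Ki-67, had 971, 853 and 939.7 at 48 h and 791, 764 and 728 at 72 h, against 1294, 1145 and 919 in uninduced cells. The 48 h arrays of Mki67 overlapped the uninduced arrays and the 72 h arrays did not. Its difference was -0.26 ± 0.70 at 48 h and -0.53 ± 0.70 at 72 h, and without 24 h replicate 1 the adjusted p was 0.106 at 48 h and 0.00332 at 72 h (0.055 to 0.916 and 0.00104 to 0.729 over the alternatives). The difference between Top2a and Mki67 was not tested.

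**Figure D3:**
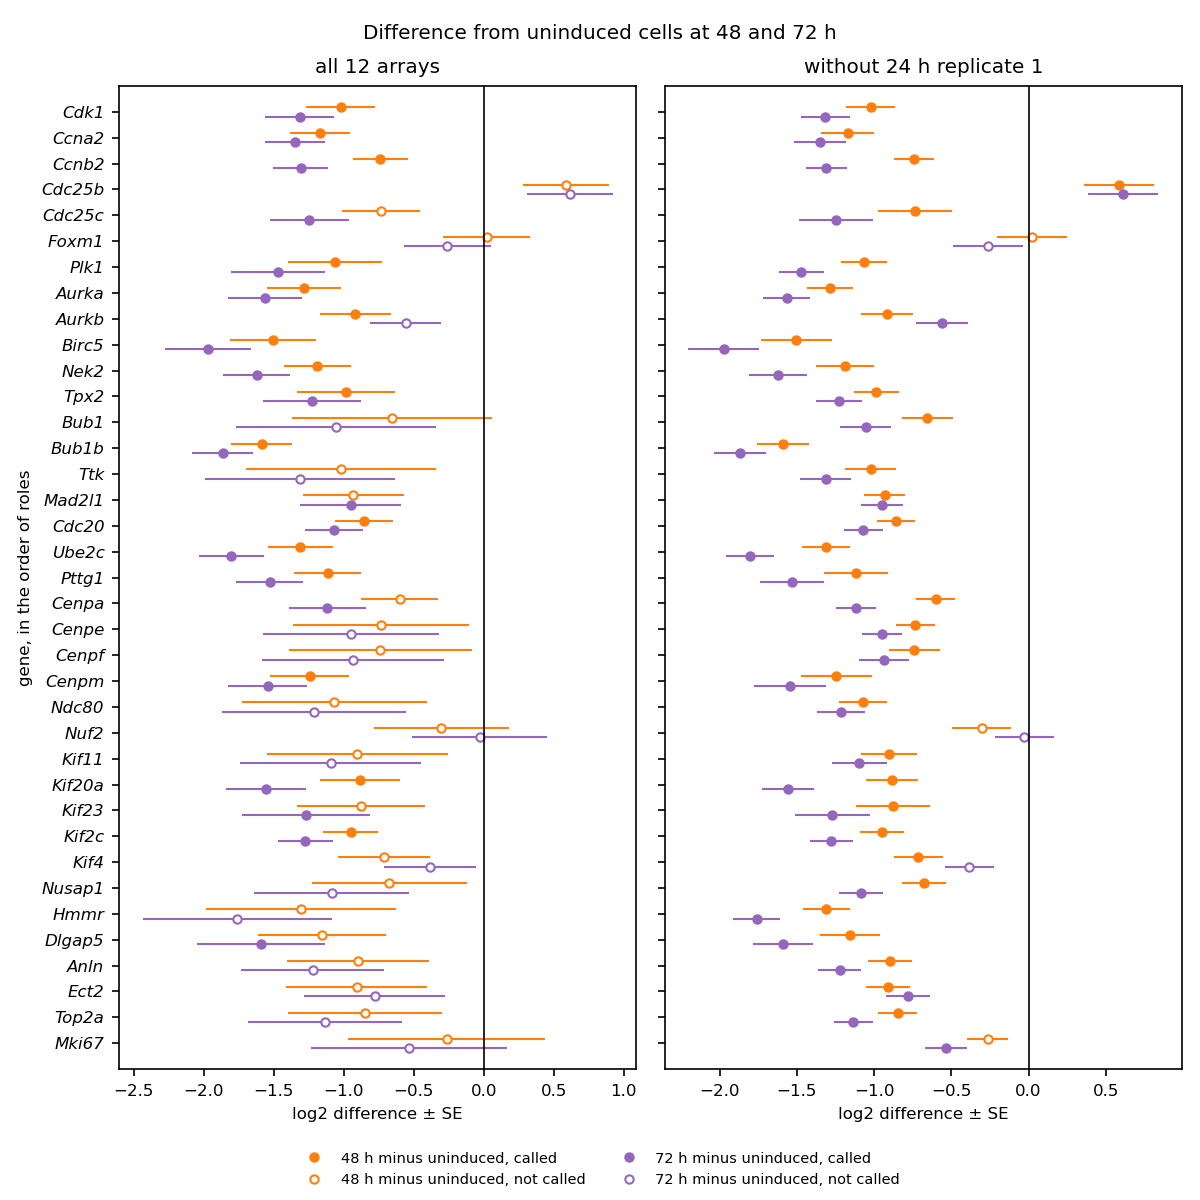
Points are the log2 differences from uninduced cells of each member at 48 h and 72 h ± SE, filled where called, with all 12 arrays in the left panel and without 24 h replicate 1 in the right panel. The differences are the same in both panels, while the error bars of Bub1, Ttk, Cenpe, Cenpf, Ndc80, Kif11, Hmmr, Top2a and Mki67 shrink in the right panel.

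Counted over the set with all 12 arrays, 16 of 37 members were called lower and 0 higher at 48 h, where 14.0% of all genes tested were called lower and 22.6% higher. At 72 h 20 were lower and 0 higher, against 18.6% lower and 25.3% higher over all genes. Without 24 h replicate 1 the counts were 33 lower and 1 higher at 48 h, where 23.8% of all genes were lower and 32.7% higher, and 33 lower and 1 higher at 72 h, where 27.9% were lower and 34.0% higher. The 1 higher gene was Cdc25b. Both comparisons use the same 3 uninduced arrays. All 16 members lower at 48 h and all 20 lower at 72 h were among the members called without that array. At an unadjusted p under 0.05 limma gave 21 members at 48 h and 23 at 72 h with 12 arrays. The share of all genes at that cutoff was not counted, so these 2 counts have no background. The 48 h differences ran from -1.59 to 0.59 and the 72 h differences from -1.97 to 0.61.

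**Figure D4:**
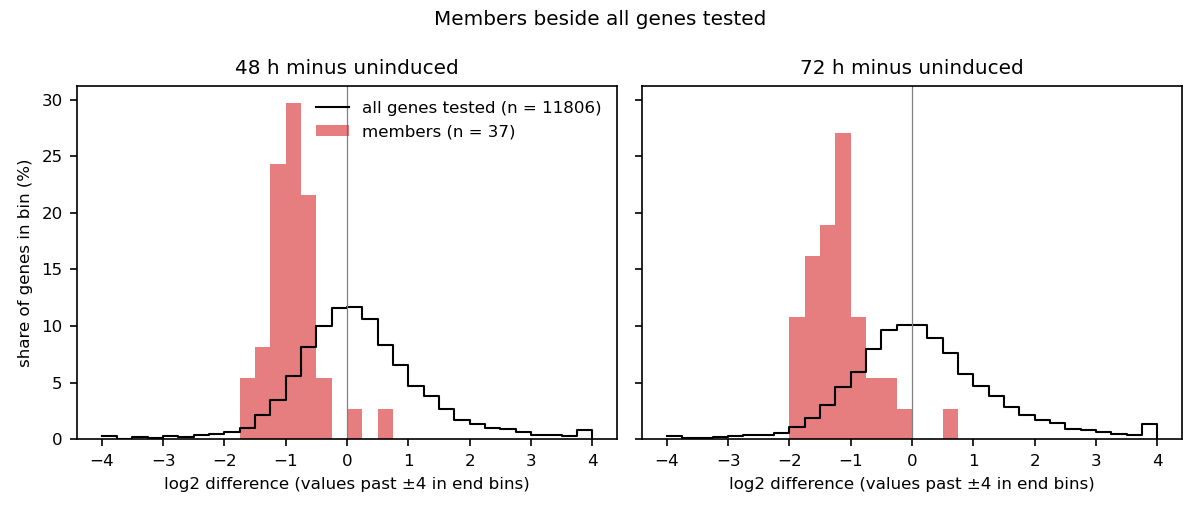
Red bars give the share of the 37 members, and the black outline the share of all 11806 genes tested, in each bin of the log2 difference from uninduced cells, at 48 h on the left and 72 h on the right. The bars gather below 0, around -0.91 at 48 h and -1.23 at 72 h, whereas the outline centres near 0, and a few bars overlap its middle.

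At 24 h, by contrast, the only members called with 12 arrays were Cdc25b and Cenpm, both higher, where 8.12% of all genes tested were higher and 3.18% lower. Cdc25b had 771, 344 and 494 against 93.9, 132 and 103 in uninduced cells, and all 3 induced arrays lay far above. The difference was 2.07 ± 0.31 (adjusted p = 0.00108). Cenpm had 1802, 1235 and 1438 against 364, 396 and 708 in uninduced cells, without overlap, and rose by 1.62 ± 0.28 (adjusted p = 0.0031). Cenpm thus stood above uninduced cells at 24 h and below them at 48 h and 72 h. Without 24 h replicate 1 both remained called, where 16.1% of all genes were higher and 8.87% lower, and Bub1b was lower (-0.65 ± 0.19, adjusted p = 0.0229, 0.00563 to 0.263 over the alternatives). Bub1b had 614, 644 and 701 at 24 h against 1054, 958 and 1191 in uninduced cells, and all 3 of its 24 h arrays were below. The median of the 37 members at 24 h was -0.39 with 12 arrays and -0.02 without replicate 1, against 0.10 and 0.09 over all genes. At an unadjusted p under 0.05 limma gave 3 members with 12 arrays, a count with no share of all genes to set beside it.

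The 3 arrays at 24 h did not show 1 pattern. Averaged over the 37 members, the deviation from the uninduced mean was -1.01 on replicate 1 and 0.07 and 0.08 on replicates 2 and 3, whereas it was -0.95, -0.96 and -0.74 at 48 h and -1.24, -1.25 and -0.95 at 72 h. Replicate 1 was not low for all members: 22 lay below every uninduced array and 13 above. On replicate 2, 11 lay below and 13 above, and on replicate 3, 8 below and 8 above. The same counts over all genes were not made. Against the mean of replicates 2 and 3, 19 of 37 members (51.4%) were at least 2-fold lower on replicate 1. Another 3 (8.11%) were at least 2-fold higher on it. Of all genes, 20.4% were as much lower and 18% as much higher. Among the low members, Hmmr had 117 on replicate 1 and 1531 and 1334 on replicates 2 and 3. Mki67 had 95.00 on replicate 1 and 1353 and 1316 on the others. Among the high members, Plk1 had 2227 on replicate 1 and 946 and 719.7 on the others, and Cenpa 3001 and 1431 and 1363. The 8 members at least 8-fold lower on replicate 1 were Bub1, Mki67, Hmmr, Ttk, Ndc80, Cenpf, Kif11 and Cenpe. Over all genes tested, 252 of 11806 were as much lower. Beside this stand the 3' to 5' ratios given above, raised for Pcx and not for Gapdh, beta-actin or the transferrin receptor. What they share with these values was not tested.

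**Figure D5:**
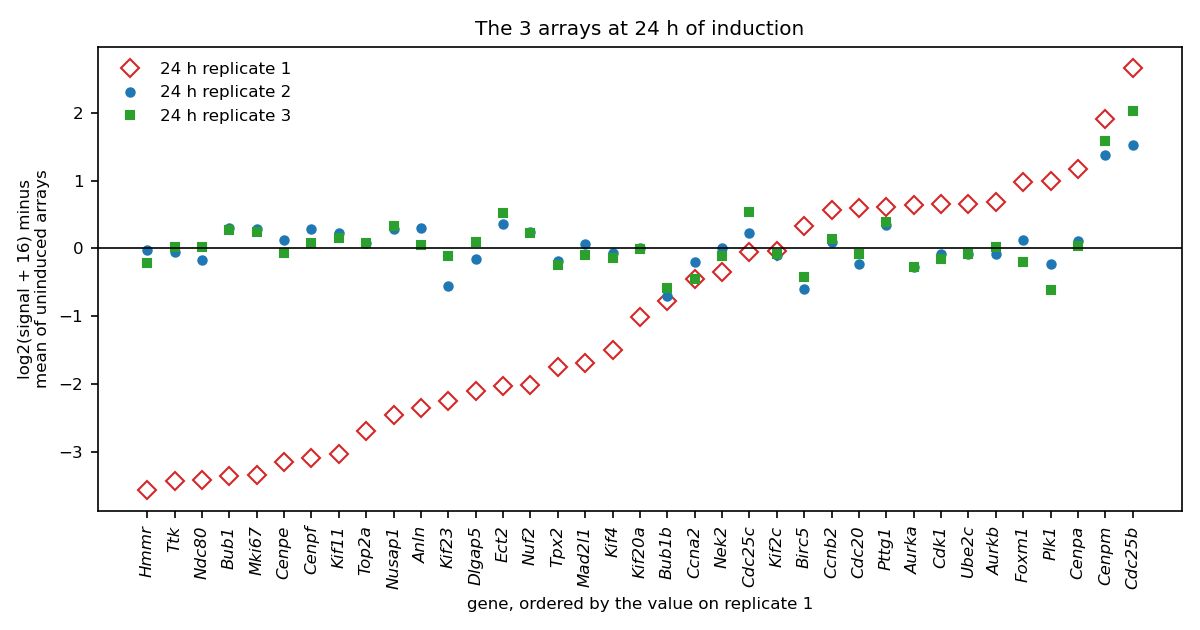
Each member has 3 points, its log2(signal + 16) on 24 h replicates 1, 2 and 3 minus the mean of the uninduced arrays, ordered from left to right by replicate 1 (red diamonds). Replicates 2 and 3 lie within 1 of 0 except for Cdc25b and Cenpm, while replicate 1 runs from -3.56 for Hmmr to 2.66 for Cdc25b.

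Between 24 h and 48 h the direct comparison called 17 of 37 members lower and 0 higher with 12 arrays, where 7.55% of all genes tested were lower. The count was 11 without 48 h replicate 2. Of all genes called in this comparison 42.3% were lower with the authors' scaling and 54.4% with quantile normalization. Without 24 h replicate 1 it called 34 lower and 0 higher, where 11.3% of all genes were lower. In that fit the 3 arrays at 48 h lay below both remaining 24 h arrays for 36 of 37 members, as they did for 27.3% of all genes, and the exception was Foxm1. With 12 arrays the largest difference was that of Cenpm, with 146, 197 and 231 at 48 h against 1802, 1235 and 1438 at 24 h, a fall by 2.87 ± 0.28 (adjusted p = 5.34e-05). Pttg1 had 1111, 1622 and 2332 at 48 h against 5366, 4483 and 4592 at 24 h and fell by 1.56 ± 0.24. Cdc25b had 144, 149.8 and 230.1 at 48 h against 771, 344 and 494 at 24 h, a fall by 1.49 ± 0.31, and Ube2c fell by 1.48 ± 0.23. For 9 members the difference with 12 arrays was above 0, Mki67 at 0.67 ± 0.70 the highest, and none of these was called. The 24 h arrays of these 9 included low values on replicate 1, such as those of Bub1, Ttk and Mki67 given above. Others were 38.3 for Nuf2, 124 for Kif23 and 453 for Top2a.

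Between 48 h and 72 h no member was called with 12 arrays, where 0.152% of all genes tested were called lower. An unadjusted p under 0.05 in limma was reached by 2 members, and the share of all genes that reached it was not counted. The median was -0.29, against -0.03 over all genes. Without 24 h replicate 1, 3 members were lower, where 1.68% of all genes were. In that fit these were Ccnb2 (-0.57 ± 0.13), Cenpa (-0.51 ± 0.13) and Kif20a (-0.67 ± 0.17). For 11 of the 37 members all 72 h arrays lay below all 48 h arrays, as they did for 12.6% of all genes.

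Other genes of G2 and mitosis, a list of 113 of which 106 were tested, moved in the same direction in part. At 48 h 29 were lower and 4 higher with 12 arrays, where 14.0% and 22.6% of all genes tested were. Without 24 h replicate 1 there were 61 and 10, where 23.8% and 32.7% of all genes were. At 72 h 40 were lower and 5 higher with 12 arrays, where 18.6% and 25.3% of all genes were. Without that array there were 69 and 12, where 27.9% and 34.0% of all genes were. The median of the 106 genes was -0.55 at 48 h and -0.62 at 72 h, against 0.12 and 0.09 over all genes. At 24 h 2 were lower and 0 higher, where 3.18% of all genes were lower and 8.12% higher. The 2 were Anapc10, a subunit of the anaphase-promoting complex (-1.34 ± 0.22), and Trip13, an ATPase of the checkpoint (-0.86 ± 0.22). Of the anaphase-promoting complex and its partners, whose subunits are needed outside mitosis too, 4 of 15 were lower at 72 h. Condensin and cohesin genes had 4 of 12 lower, further kinetochore genes 12 of 26, further spindle genes 7 of 21 and further control genes of G2 and M 9 of 16. The share of all genes called lower at 72 h with 12 arrays, 18.6%, is the background to these counts by group.

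The largest fall in that list was in Mybl2, the gene of B-Myb, which activates G2 and M promoters with MuvB, at -3.31 ± 0.37 at 48 h and -3.48 ± 0.37 at 72 h. Next came Cep55, an abscission factor (-1.97 ± 0.62 and -1.92 ± 0.62), Ska1, of the kinetochore (-1.58 ± 0.21 at 48 h), and Espl1, the gene of separase (-1.82 ± 0.39 at 72 h). The largest rises were in Rb1, the gene of the retinoblastoma pocket protein (2.30 ± 0.45 at 48 h and 2.20 ± 0.45 at 72 h), Mybl1, the gene of A-Myb (2.06 ± 0.56 at 48 h), Zwint, of the kinetochore (0.85 ± 0.17 and 1.33 ± 0.17), and Tfdp2, a partner of E2F factors (1.26 ± 0.46 at 72 h). In the group of MuvB, B-Myb and pocket protein genes, 4 of 16 were lower and 3 higher at 72 h, close to the shares of all genes (18.6% and 25.3%). Members of the 38 that have further probe sets could be compared on them: 23 genes had 42, of which 18 were as bright as the filter asks on all arrays. Of these 18, 2 had the opposite sign at 48 h and 2 at 72 h, all of Foxm1, and 4 at 24 h, of Cdc25c, Tpx2 and Cdc20. Only signs were compared in these counts, and sizes could differ. The falls were smaller on the further bright probe sets of Tpx2, Cdc25c and Nek2 given above. Other members with smaller falls on a further bright probe set included Top2a (-0.54 at 48 h and -0.56 at 72 h) and Hmmr (-0.75 and -0.81 on its dimmest bright one). They were larger on those of Cdc20 (-1.35 and -1.43 at 48 h, against -0.86).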

How the data were processed

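Total RNA of 12 cultures was hybridised to Affymetrix arrays, 3 per group. The deposited table holds linear intensity, a MAS5 signal for each probe set on each array (per the submitters' processing notes), with version and settings not given in the sources used here. As a method, MAS5 subtracts a mismatch estimate, so dim signals are noisy. The 2% trimmed mean was 150 on every array, and having 3 arrays a group limits precision. Of 45101 probe sets, 64 were controls, 34945 had 1 symbol, 932 several and 9160 none, and 34741 matched RefSeq by Entrez identifier. The brightest probe set of 1 symbol stood for a gene, and a gene was tested where it exceeded its array's median on all 3 arrays of a group. The log2(signal + 16) values, computed here with the authors' scaling kept, understate changes of dim genes. They were fitted with limma 3.58.1 in R 4.3.3 (4 group terms, eBayes with an intensity trend, two-sided, 5 comparisons, Benjamini-Hochberg over 11806 genes, 11893 without 24 h replicate 1). The members, lists and alternatives were chosen with earlier results of these data known. All members could be named, and of the other mitotic genes up to 3 called falls and 3 called rises per comparison with uninduced cells. On simulated data for 48 h against uninduced cells (10772 genes tested), the fit recovered 24 of 93 genes changed by 1 and 75 of 95 changed by 2 on the log2 scale, with 6 false calls among 10584. Coordinates are those of GRCm38.p6.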

Additional observations from a re-analysis of the deposited data

Results flagged for a closer look

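For 17 members the difference from uninduced cells was not the same at 48 h as at 24 h, by the direct limma test of 48 h against 24 h with all 12 arrays (adjusted p under 0.05 over all genes tested). The size of that difference on the log2 scale was -2.87 for Cenpm, -1.56 for Pttg1, -1.49 for Cdc25b, -1.48 for Ube2c, -1.32 for Aurka, -1.28 for Birc5, -1.16 for Cdk1, -1.13 for Aurkb and -1.12 for Plk1. It was -1.04 for Nek2, -1.04 for Cenpa, -1.01 for Ccnb2, -0.976 for Cdc25c, -0.951 for Cdc20, -0.896 for Bub1b, -0.877 for Kif2c and -0.803 for Ccna2. All 17 were also lower at 48 h than at 24 h without 24 h replicate 1, a fit in which 34 members were called lower, where 11.3% of all genes were. The sizes depended on that array. Without it the difference was -0.65 for Plk1, -0.68 for Cenpa and -1.01 for Aurka, smaller falls than with 12 arrays. It was a larger fall for Nek2 (-1.13), Cdc25c (-1.12), Bub1b (-0.94) and Ccna2 (-0.84). Cenpm and Cdc25b stood apart from the other 15 in that both were called above uninduced cells at 24 h.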

How the results depend on the processing

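Every comparison was recomputed under 24 alternatives. The counts of called members moved with the treatment of 24 h replicate 1, which enters the tests at 48 h and 72 h against uninduced cells through the shared spread and those with 24 h also through the differences. For 48 h against uninduced cells the 16 called members became 33 with array weights and 34 in a fit of the 2 groups alone, for 72 h the 20 became 34 and 34, for 48 h against 24 h the 17 became 31 and 8, and for 72 h against 48 h the 0 became 20 and 1. At 48 h and 72 h against uninduced cells the counts of all genes called rose too in both fits, as given at the end. The estimation of array weights did not reach its convergence tolerance for some genes. Leaving out 1 array at a time gave 2 to 3 members at 24 h, 12 (without 48 h replicate 2) to 34 at 48 h, 16 (without uninduced replicate 3) to 34 at 72 h, 11 (without 48 h replicate 2) to 34 for 48 h against 24 h and 0 to 3 for 72 h against 48 h. The highest count came each time without 24 h replicate 1, and the next highest were 2, 18, 22, 17 and 0. The median over members ran from -0.743 to -0.0182 at 24 h, -1.01 to -0.861 at 48 h, -1.3 to -1.16 at 72 h, -0.923 to -0.363 for 48 h against 24 h and -0.38 to -0.223 for 72 h against 48 h in the same runs. The median moved to -0.747 at 48 h and -0.935 at 72 h with the mean of all probe sets of a gene, to -1.13 at 72 h with a pseudocount of 64, and to -1.32 at 72 h with array weights. With the 4 arrays numbered 3 left out, chosen after seeing the data, 9 members were called for 48 h against 24 h. Quantile normalization moved the median of all genes at 48 h to -0.0284, where the authors' scaling gave 0.118, and at 72 h to -0.0774, where it gave 0.0867. Relative to these the members stood at -0.883 and -1.08.

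The replicate numbers do not settle a pairing. Of 18 correlations between the deviations of same-numbered arrays, which ran from 0.0308 to 0.577, 16 exceeded 0.1, and in 16 of 18 the own number correlated best, a hint from the data alone. The ratio of 3' to 5' signal of the 18S rRNA control, too, was 0.801 to 1.36 on arrays numbered 1, 0.07 to 0.189 on those numbered 2 and 0.265 to 0.562 on those numbered 3. With a replicate block 3, 19, 21, 17 and 0 members were called in the 5 comparisons. With the replicate block and without 24 h replicate 1, chosen after seeing the data, 5, 34, 35, 35 and 7 were. The count of all genes called at 24 h rose too, from 1335 to 1676 with the block and to 3694 with the block and without that array. For the other comparisons no count of all genes is set beside these.

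Single members reversed in sign where 24 h replicate 1 lost its weight. For 48 h against 24 h, leaving out 1 array gave -0.933 to 0.892 for Bub1, -1.01 to 0.719 for Ttk, -0.765 to 0.878 for Cenpe, -0.919 to 0.77 for Cenpf, -0.992 to 0.729 for Ndc80, -0.923 to 0.467 for Top2a and -0.529 to 1.28 for Mki67, with the lowest value each time without 24 h replicate 1. Array weights gave -0.8 for Bub1, -0.948 for Ttk, -0.822 for Cenpf, -0.945 for Ndc80 and -0.841 for Top2a. Without that array and with the replicate block the values were -0.876 for Bub1, -0.939 for Ttk, -0.739 for Cenpe, -0.952 for Cenpf, -0.93 for Ndc80, -0.537 for Kif23, -0.91 for Top2a and -0.588 for Mki67, and Ect2 at 24 h stood at 0.411. No called fall at 48 h or 72 h against uninduced cells reversed under any of the 24 alternatives.

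Counts of all genes called moved too, most of all for 72 h against 48 h, with 94 genes on 12 arrays, 485 without 24 h replicate 1, 2549 with array weights and 0 with the 4 arrays numbered 3 left out. With array weights 6956 of the 11806 genes tested were called at 48 h and 8108 at 72 h. At 24 h 1335 genes were called with 12 arrays, 385 in the fit of the 2 groups alone and 2972 without 24 h replicate 1, at 48 h 4316, 6411 and 6718, and at 72 h 5180, 6941 and 7360.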
